A study of Mus musculus with 6 samples.

Results

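The genes described here are 10 negative regulators of mitogen-activated protein (MAP) kinase and growth factor receptor signalling, namely Dusp1, Dusp2, Dusp3, Dusp4, Dusp5, Dusp6, Dusp16, Spry2, Spred1 and Errfi1. They were taken by gene name from a table of 19162 genes, and all 10 were found and were among the 13326 genes with enough counts to test. Messenger RNA had been sequenced in bone marrow cells of C57BL/6J mice held for 4 days in 40 ng/mL of recombinant GM-CSF, a cytokine that expands myeloid cells, and the series title calls them myeloid-derived suppressor cells. The KCl group (KCl 1, KCl 2 and KCl 4) received 34.7 mM of extra potassium chloride during this culture. The control group (control 1, control 2 and control 4) received the same GM-CSF and no added KCl. Sex and age of the mice, and whether the replicates came from separate mice, are not given in the labels, so p-values describe the spread between these libraries, which may be technical.

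MAP kinases (ERK, JNK and p38) are switched on by phosphorylation of a threonine and a tyrosine, and dual-specificity phosphatases (DUSPs) remove both phosphates. Many DUSP, Sprouty and Spred genes are transcribed when ERK signalling is active, and their products then restrain the same route, as a negative feedback. In myeloid cells this feedback limits the signals of cytokine and innate immune receptors, and the GM-CSF receptor is one of the receptors that engage RAS and ERK.

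Library totals ran from 14118724 to 21694831 counts. Replicate 4 stood apart, and for each of the 10 genes its CPM values are given separately. CPM means the counts of a gene relative to a library total adjusted by TMM, except in the next comparison of pairs, which used unadjusted library totals. For 8231 well-counted genes, the mean level of KCl 4 and control 4 matched the mean of the other 4 libraries with an SD of 0.0095 on the log2 scale. Sampling of reads would give 0.044. Each of the 14 remaining pairs of libraries, treated the same way, gave 0.123 to 0.262. These 2 libraries were therefore not independent of the other 4, and p-values from all 6 may be too small. The 12 markers of myeloid cells, the labelled cell type, all had enough counts to test. Their summed level was 22589 to 29545 CPM in KCl and 17429 to 20198 CPM in control. Lyz2 alone had 8742 to 11569 CPM in KCl and 4769 to 5933 CPM in control. With all 6 libraries 5 of the 12 were higher and 0 lower (edgeR adjusted p under 0.05). Over all tested genes 12.4% were higher and 10.5% lower. Ptprc, Itgam, Itgb2, Ly6g and S100a8 had opposite signs in replicate 4 and in replicates 1 and 2.

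With all 6 libraries, 5 of the 10 genes rose in KCl and 0 fell in edgeR's quasi-likelihood test at an adjusted p under 0.05, where 12.4% of all tested genes rose and 10.5% fell. The 5 were Dusp4, Spry2, Dusp1, Dusp6 and Dusp3. The median log2 fold change (KCl over control) was 0.43 over the 10 genes and -0.0045 over all tested genes. The 10 genes were chosen with earlier results of these data known, so these counts and medians describe them and do not test them as a set. At an unadjusted p under 0.05 the 5 higher genes were joined by 1 lower gene, Dusp5, which DESeq2 called lower and limma-voom did not. At that unadjusted level 17.9% of all tested genes were higher and 16.4% lower. With replicates 1 and 2 alone, 1 of the 10 rose and 0 fell, where 0.333% of tested genes rose and 0.126% fell. That gene was Errfi1, which did not pass with all 6 libraries. At an unadjusted p under 0.05, 7 were higher and 0 lower in replicates 1 and 2, against 16.2% and 13.6% of all tested genes. DESeq2 called 4 higher and 0 lower there (5.81% and 2.72% of all genes), and limma-voom 1 and 0. With a term for replicate 4 in the fit of all 6 libraries, 3 rose and 0 fell (6.92% and 4.89% of all genes). In the account below, "rose" refers to the test with all 6 libraries unless replicates 1 and 2 are named.

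**Figure D1:**
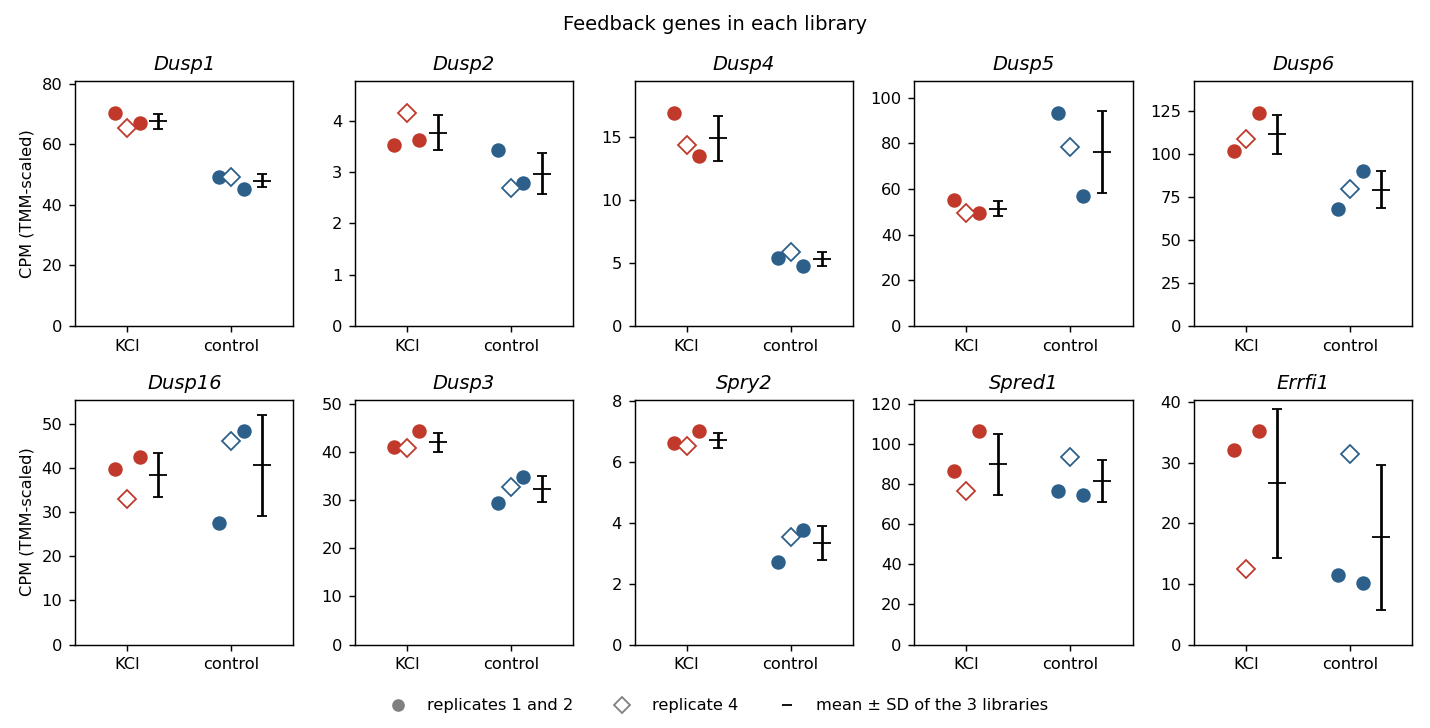
TMM-scaled CPM of each gene (vertical axis, linear and from 0) in the KCl and control libraries, with filled circles for replicates 1 and 2, open diamonds for replicate 4, and a bar for the mean and SD of 3 libraries. KCl and control do not overlap for Dusp4, Spry2, Dusp1, Dusp6, Dusp3, Dusp2 and Dusp5, while the diamonds of Errfi1 stand on the opposite sides from its circles.

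The largest rise was that of Dusp4, which encodes a nuclear phosphatase that acts on ERK and JNK (ENSMUSG00000031530, chromosome 8 of mm10, 34807297 to 34819894, plus strand). It had 16.9 and 13.5 CPM in KCl 1 and KCl 2, against 5.43 and 4.76 CPM in control 1 and control 2. Replicate 4 had 14.4 CPM in KCl 4 and 5.86 CPM in control 4. Every KCl library was thus more than double every control library. Its log2 fold change was 1.49 ± 0.13 (SE, n = 3 per group) with an edgeR adjusted p of 0.0026, and it stayed between 1.39 and 1.55 when any 1 library was left out. In replicates 1 and 2 alone the fold change was 1.57 ± 0.18 with an adjusted p of 0.0538, which just missed the threshold.

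Spry2 encodes Sprouty 2, an inhibitor of the step from growth factor receptors to RAS and ERK (ENSMUSG00000022114, chromosome 14, 105891947 to 105896819, minus strand). It had 6.62 and 7.00 CPM in KCl 1 and KCl 2, against 2.71 and 3.75 CPM in control 1 and control 2. The values of replicate 4 were 6.53 CPM in KCl 4 and 3.53 CPM in control 4. The KCl libraries lay within a narrow band, well above the controls. The log2 fold change was 1.01 ± 0.14 with an edgeR adjusted p of 0.0064, a doubling (2.02-fold), and 1.07 ± 0.24 in replicates 1 and 2 (adjusted p = 0.0862). Stromal and endothelial cells also express this gene, and the summed level of 12 of their markers was 83.8 to 95.6 CPM in KCl and 84.1 to 94.5 CPM in control. Those ranges overlapped, but most of each sum was Pecam1, at 67.9, 64.5 and 64.1 CPM in KCl 1, KCl 2 and KCl 4. It had 72.4, 68.2 and 71.6 CPM in control 1, control 2 and control 4. Of the 10 tested markers, 5 were higher in KCl in replicates 1 and 2 and lower in replicate 4, and 5 kept 1 sign. The part of such cells in the Spry2 values was not tested. Fewer cells of a type cannot be told apart from less RNA per cell in such bulk samples.

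Dusp1, the inducible nuclear phosphatase that turns off p38 and JNK and limits inflammatory gene expression in macrophages, rose by a smaller factor but with little spread (ENSMUSG00000024190, chromosome 17, 26505590 to 26562128, minus strand). It had 70.4 and 67.2 CPM in KCl 1 and KCl 2, against 49.3 and 45.4 CPM in control 1 and control 2. Replicate 4 had 65.4 CPM in KCl 4 and 49.3 CPM in control 4. The gap between the groups was several times the spread within either, as group means of 67.7 ± 2.52 and 48.0 ± 2.23 CPM show for KCl and control (SD, n = 3 each). Its log2 fold change was 0.50 ± 0.06 with an edgeR adjusted p of 0.00463. In replicates 1 and 2 it was 0.54 ± 0.09 with an adjusted p of 0.0694.

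Dusp6, a cytoplasmic phosphatase specific for ERK and the most abundant of the 10 transcripts per length in KCl, had 102 and 124 CPM in KCl 1 and KCl 2, against 68.2 and 90.3 CPM in control 1 and control 2. For replicate 4 the values were 109 CPM in KCl 4 and 79.9 CPM in control 4. The lowest KCl library exceeded the highest control library by a modest margin. It rose by 0.49 ± 0.12 on the log2 scale (edgeR adjusted p = 0.0342), and the value in replicates 1 and 2, 0.51 ± 0.17, did not pass (adjusted p = 0.141). The call was lost when any 1 library except control 2 was left out, with edgeR adjusted p-values from 0.0533 to 0.0941. Dusp6 (ENSMUSG00000019960) lies on chromosome 10 from 99263231 to 99267489 on the plus strand.

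Dusp3 encodes a small atypical phosphatase without the kinase-binding domain of the other DUSPs described here. It had 41.0 and 44.3 CPM in KCl 1 and KCl 2, against 29.4 and 34.8 CPM in control 1 and control 2. Replicate 4 held 40.8 CPM in KCl 4 and 32.8 CPM in control 4. The groups were separate in each replicate. It rose by 0.38 ± 0.08 on the log2 scale (edgeR adjusted p = 0.0196), and the value in replicates 1 and 2, 0.41 ± 0.12, did not pass (adjusted p = 0.116). Leaving out any KCl library or control 4 ended the call, with edgeR adjusted p-values from 0.0511 to 0.0688. Dusp3 (ENSMUSG00000003518, chromosome 11, 101971143 to 101987013, minus strand) shares 604 exonic bases with the antisense gene Gm20659, and no source used here gives the strand setting of the counting, so reads from the 2 genes cannot be told apart.

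Dusp5, a nuclear phosphatase specific for ERK, was the only one of the 10 with every KCl library below every control library. It had 55.3 and 49.3 CPM in KCl 1 and KCl 2, against 93.3 and 57.1 CPM in control 1 and control 2. In replicate 4 it had 49.6 CPM in KCl 4 and 78.2 CPM in control 4. The KCl libraries were alike, while the controls varied widely and control 2 came close to KCl 1. The log2 fold change of -0.57 ± 0.18 did not pass (edgeR adjusted p = 0.0666; -0.53 ± 0.25 and adjusted p = 0.223 in replicates 1 and 2). Without control 2 it passed, at -0.74 ± 0.10 and an edgeR adjusted p of 0.0147, and DESeq2 gave an adjusted p of 0.0108 with all 6 libraries. The summed level of 10 dendritic cell markers moved in the same order, at 2195, 1731 and 1929 CPM in KCl 1, KCl 2 and KCl 4 and at 3490, 2649 and 3131 CPM in control 1, control 2 and control 4. Of these markers, 5 fell in KCl and 0 rose, against 10.5% and 12.4% of all tested genes, and none was at 0 in every library. The part of dendritic cells in the Dusp5 values was not tested. Dusp5 (ENSMUSG00000034765, chromosome 19, 53529109 to 53542431, plus strand) shares 547 exonic bases with an antisense gene.

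Dusp2, an inducible nuclear phosphatase found mainly in blood cells, was scarce, with 67, 62 and 75 counts in KCl 1, KCl 2 and KCl 4 and 72, 61 and 38 counts in control 1, control 2 and control 4. After scaling it had 3.52 and 3.62 CPM in KCl 1 and KCl 2, against 3.43 and 2.79 CPM in control 1 and control 2. Replicate 4 gave 4.15 CPM in KCl 4 and 2.68 CPM in control 4. The KCl libraries lay above the controls by a margin that was smallest between KCl 1 and control 1. The log2 fold change of 0.33 ± 0.15 did not pass (edgeR adjusted p = 0.17), nor did that of 0.20 ± 0.23 in replicates 1 and 2 (adjusted p = 0.597). Non-overlap of this kind held for 6 of the 10 genes with KCl higher and for 1 with KCl lower, against 20.2% and 18.4% of all tested genes.

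**Figure D2:**
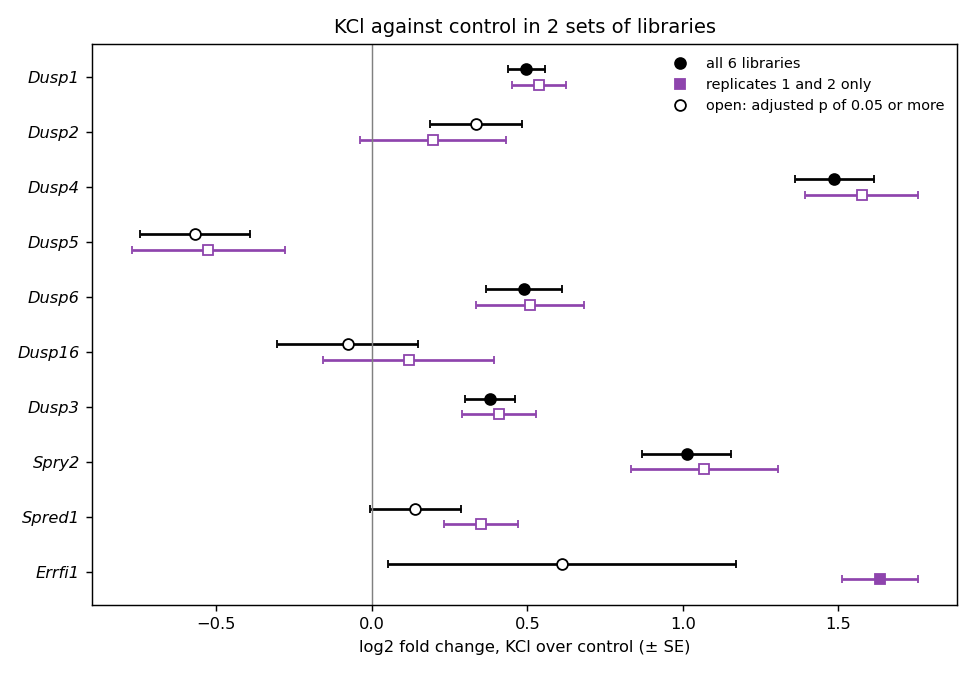
Log2 fold change of KCl over control with its standard error (horizontal axis) for each gene, with all 6 libraries (circles) and with replicates 1 and 2 only (squares), where filled symbols have an edgeR adjusted p under 0.05. The 5 filled circles lie between 0.38 and 1.49, and the only filled square is Errfi1 at 1.63.

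Errfi1 gave opposite answers in the replicates. Its product, also called MIG6, binds and inhibits the kinase domain of epidermal growth factor (EGF) receptors, and its transcription is raised by many stimuli, stress among them. Errfi1 (ENSMUSG00000028967, chromosome 4, 150853919 to 150868892, plus strand) had 32.1 and 35.2 CPM in KCl 1 and KCl 2, against 11.5 and 10.2 CPM in control 1 and control 2. In replicate 4 it had 12.5 CPM in KCl 4 and 31.5 CPM in control 4. Control 4 thus held as much of the transcript as KCl 1, and KCl 4 held about as little as control 1. In replicates 1 and 2 the gene rose by 1.63 ± 0.12 on the log2 scale (edgeR adjusted p = 0.0355), the largest change of the 10 genes there. Leaving out KCl 1 or KCl 2 from those 4 libraries ended the call (fold change 1.69 with adjusted p = 0.195, and 1.56 with adjusted p = 0.2), in fits where the lone KCl library is assumed to vary like the controls. In replicate 4 the difference of log2 CPM (KCl 4 minus control 4) was -1.33, with no test. With all 6 libraries the log2 fold change was 0.61 ± 0.56 (edgeR adjusted p = 0.554).

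Several neutrophil markers turned round in replicate 4 in the same way. Of 10 such markers, 6 were higher in KCl by the mean of replicates 1 and 2 and lower in replicate 4, namely Retnlg, Cxcr2, Ly6g, Mmp8, Mmp9 and S100a8. For S100a8 the difference in replicates 1 and 2 was only 0.09 on the log2 scale, and KCl 1 (2341 CPM) lay below control 1 (2633 CPM) and control 2 (3129 CPM). An opposite sign in replicate 4 was not particular to these markers. It occurred in 41.8% of all tested genes. Among other lists it occurred in 5 of 10 tested stromal and endothelial, 2 of 8 eosinophil, 3 of 10 macrophage and 0 of 10 dendritic cell markers. Opposite signs were also found in 2 of 6 lymphocyte, 2 of 5 erythroid and megakaryocyte, and 4 of 8 basophil and mast cell markers. The last 4 turned the other way, with KCl lower in replicates 1 and 2 and higher in replicate 4. Cxcr2, the chemokine receptor of neutrophils, had 134 and 206 CPM in KCl 1 and KCl 2, against 51.8 and 78.7 CPM in control 1 and control 2. It had 68.9 CPM in KCl 4 and 158 CPM in control 4. Retnlg, a secreted neutrophil protein, had 39.8 and 60.4 CPM in KCl 1 and KCl 2, against 12.6 and 19.6 CPM in control 1 and control 2, and 17.4 CPM in KCl 4 against 46.0 CPM in control 4. The differences of log2 CPM in replicate 4 and in replicates 1 and 2 were -1.39 and 1.64 for Retnlg, close to those of Errfi1. The other 4 markers (Ltf, Ngp, Cd177 and Camp, which encode granule or surface proteins) were higher in KCl in every replicate. The part of neutrophils in the Errfi1 values was not tested.

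The mean of KCl 4 and control 4 nevertheless matched the mean of the other 4 libraries for Errfi1, with a log2 ratio of -0.015, so the match seen over the whole table held here too while the direction was turned round. For the 10 genes that ratio ran from -0.027 to 0.033. The difference between the KCl effect in replicate 4 and that in replicates 1 and 2, tested as an interaction, was -2.97 ± 0.21 for Errfi1 on the log2 scale, with an unadjusted p of 4.12e-05 and an adjusted p of 0.11 in edgeR's quasi-likelihood test. It did not pass over all genes. Of the 10 genes 0 passed this test, 2 had an unadjusted p under 0.05 (Errfi1 and Spred1, both with the lower value in replicate 4, as in 4.71% of all tested genes), and limma-voom likewise called 0. Of all tested genes 0.0075% passed, which is the single gene Nek7, a kinase of the NLRP3 inflammasome, at -3.67 ± 0.13 (adjusted p = 0.0213), named after its values were seen.

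Spred1 and Dusp16 also changed direction between the replicates, on a smaller scale. Spred1 recruits neurofibromin, an inactivator of RAS, to the cell membrane. It had 86.8 and 106 CPM in KCl 1 and KCl 2, against 76.5 and 74.6 CPM in control 1 and control 2. Replicate 4 gave 76.5 CPM in KCl 4 and 93.7 CPM in control 4. KCl was higher in replicates 1 and 2 and lower in replicate 4, so the groups overlapped. Its log2 fold change was 0.14 ± 0.15 with all 6 libraries (edgeR adjusted p = 0.605), and 0.35 ± 0.12 in replicates 1 and 2 (adjusted p = 0.139). Its interaction was -0.64 ± 0.21, with an unadjusted p of 0.0273 and an adjusted p of 0.368 in edgeR. Spred1 (ENSMUSG00000027351) lies on chromosome 2 from 117121374 to 117182279 on the plus strand.

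Dusp16 encodes a phosphatase that prefers JNK and p38 and shuttles between cytoplasm and nucleus. It had 39.8 and 42.5 CPM in KCl 1 and KCl 2, against 27.4 and 48.2 CPM in control 1 and control 2. Replicate 4 gave 32.9 CPM in KCl 4 and 46.0 CPM in control 4. Control 1 was the lowest library of all and control 2 the highest, so the controls enclosed every KCl value. The log2 fold change was -0.08 ± 0.23 (edgeR adjusted p = 0.84), and its sign turned to 0.12 ± 0.28 in replicates 1 and 2 (adjusted p = 0.794). Dusp16 (ENSMUSG00000030203) spans 134715468 to 134792625 of chromosome 6 (minus strand), and Dusp2 (ENSMUSG00000027368) spans 127336159 to 127338376 of chromosome 2 (plus strand). All 10 are protein-coding genes in GENCODE M21, and each value covers a whole gene, all exons together.

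An opposite sign in replicate 4 was common in the table. It occurred in 3 of the 10 genes (Errfi1, Spred1 and Dusp16) and in 41.8% of all tested genes. With a difference of at least 1 on the log2 scale in each direction it occurred in 1 of the 10 genes, Errfi1, and in 0.668% of all tested genes. Changes of the same sign and at least 1 in both were found in 1 of the 10 genes, Dusp4, and in 3.7% of tested genes. The other 7 genes had 1 sign throughout. Their differences of log2 CPM (KCl minus control) in replicate 4 and in replicates 1 and 2 were 1.28 and 1.55 for Dusp4, 0.87 and 1.07 for Spry2, 0.45 and 0.52 for Dusp6, 0.41 and 0.54 for Dusp1, 0.32 and 0.41 for Dusp3, 0.61 and 0.20 for Dusp2, and -0.66 and -0.48 for Dusp5. The difference in replicate 4 was thus smaller for the 5 genes that rose and larger for Dusp2 and Dusp5. A smaller difference in replicate 4 was not particular to these 5. Other genes that rose had it too, such as Socs3 (0.97 in replicate 4 and 1.22 in replicates 1 and 2) and Ier3 (0.85 and 1.06). The share over all tested genes was not counted.

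**Figure D3:**
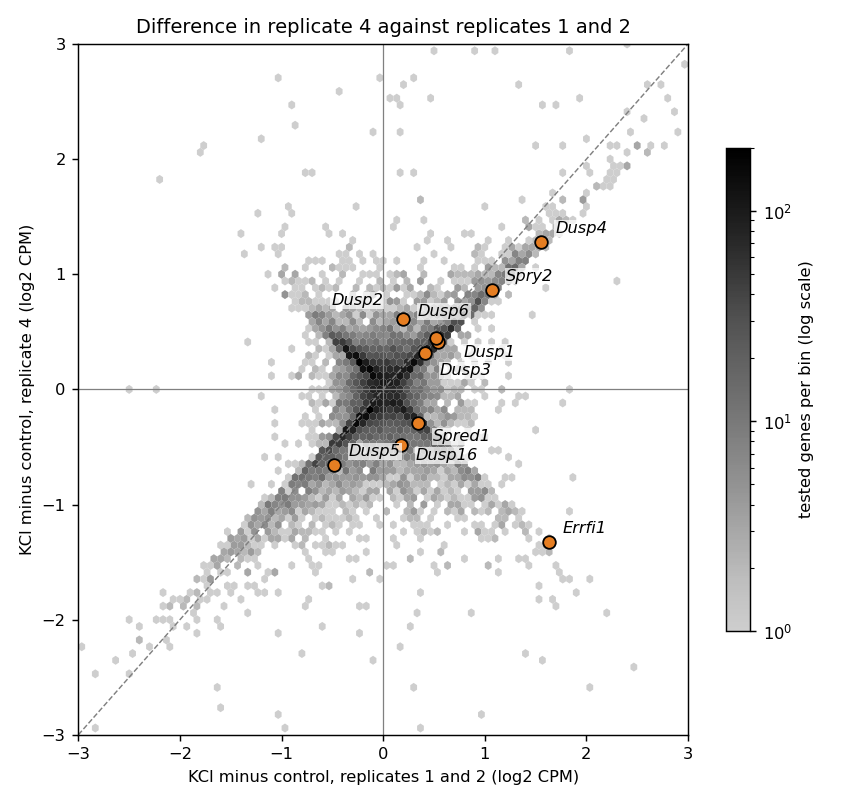
Difference of log2 CPM, KCl minus control, in replicates 1 and 2 (horizontal axis) and in replicate 4 (vertical axis) for all tested genes as grey bins on a log colour scale, with the 10 genes as labelled points and the line of equality dashed; 65 genes lie beyond the axes. Genes lie along both diagonals, with 482 at least 0.5 in opposite directions and 1653 at least 0.5 in the same direction, and Errfi1 lies on the descending one at 1.63 and -1.33.

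The start regions of the genes were examined because cyclic AMP, calcium and serum signals can act on such genes through short elements near the start. RefSeq (GRCm38.p6, the assembly of mm10) gave start regions for 9 of the 10 genes, and the 250 bases before each start were searched on both strands. The motifs were the cyclic AMP response element (CRE, TGACGTCA), its half-site TGACG (which lies within the full element), the AP-1 site TGANTCA, the ETS core CCGGAA, the serum response element (CArG box) and the tonicity-responsive element. A full CRE was found in Dusp1, with its first base 143 bases before the start, and at the second listed start of Errfi1, 51 bases before it, against 1.55% of 32851 start regions in the genome. These regions of Dusp1 and Errfi1 were 68.4% and 64.8% G or C, against a median of 52.4% over all start regions. The shares given here are not matched for base content. The CArG box was found 2 times in Dusp5, 82 and 72 bases before the start, against 1.47% of start regions. Half-sites stood in Dusp1, Dusp5, Dusp16 and Errfi1, against 17.8%, and the AP-1, ETS and tonicity letters were in none of the 9 (6.75%, 12.03% and 4.31% of start regions). A match is a description of the letters only. The 3 regions with a full CRE or a CArG box are shown 5′ to 3′ on the strand of the gene, in lower case with the matched letters in capitals, at chr17:26508473-26508722 on the minus strand for Dusp1, chr4:150854820-150855069 on the plus strand for Errfi1 and chr19:53528895-53529144 on the plus strand for Dusp5.
Dusp1: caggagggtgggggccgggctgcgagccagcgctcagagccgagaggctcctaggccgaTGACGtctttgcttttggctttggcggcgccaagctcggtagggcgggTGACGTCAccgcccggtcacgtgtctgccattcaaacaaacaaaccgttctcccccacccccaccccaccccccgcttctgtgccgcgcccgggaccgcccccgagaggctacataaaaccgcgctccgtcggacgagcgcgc
Errfi1: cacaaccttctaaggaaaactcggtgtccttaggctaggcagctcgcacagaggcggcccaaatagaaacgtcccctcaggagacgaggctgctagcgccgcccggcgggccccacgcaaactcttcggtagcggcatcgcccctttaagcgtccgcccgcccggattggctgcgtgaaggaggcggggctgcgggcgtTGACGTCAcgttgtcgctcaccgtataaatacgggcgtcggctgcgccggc
Dusp5: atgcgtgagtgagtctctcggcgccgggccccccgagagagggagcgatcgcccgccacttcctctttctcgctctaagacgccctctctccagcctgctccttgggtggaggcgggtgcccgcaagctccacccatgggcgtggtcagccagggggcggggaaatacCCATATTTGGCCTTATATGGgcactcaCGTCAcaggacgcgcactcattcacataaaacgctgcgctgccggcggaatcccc
Among these, Dusp1 was higher in every KCl library and Dusp5 was lower in every KCl library. Errfi1 was higher in KCl 1 and KCl 2 than in control 1 and control 2, and lower in KCl 4 than in control 4. The part of these elements in the values was not tested.

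Levels of the 10 genes can be compared per length in the authors' FPKM (fragments per kilobase of gene, scaled to library size). In KCl, Dusp6 was highest at 39.5 ± 3.03 FPKM (SD, n = 3), followed by Dusp5 at 20.6 ± 1.67, Dusp1 at 13.1 ± 0.624, Spred1 at 12.6 ± 1.79, Dusp3 at 7.37 ± 0.15, Dusp4 at 5.41 ± 0.744, Errfi1 at 4.26 ± 1.92, Spry2 at 3.19 ± 0.0377, Dusp16 at 2.93 ± 0.328 and Dusp2 at 1.57 ± 0.164 FPKM. The ranges of Dusp1 and Spred1 overlapped, and that of Errfi1, from 2.05 to 5.50 FPKM, overlapped those of Dusp4, Spry2 and Dusp16. In control the order began with Dusp5 at 31.0 ± 7.45 FPKM and Dusp6 at 28.6 ± 3.93 FPKM, whose ranges overlapped, so the ERK-specific nuclear and cytoplasmic phosphatases stood near each other there and were separate in KCl. Dusp4 stood above Dusp16 in KCl with separate ranges, whereas in control it held 1.97 ± 0.2 FPKM and Dusp16 held 3.14 ± 0.879 FPKM, with ranges that just overlapped. On GENCODE M21 lengths Dusp16 would hold 4.87 FPKM in KCl and 5.23 FPKM in control, so that its range would overlap that of Dusp4 in KCl and lie above it in control. These levels depend on the gene length used. The lengths implied by the deposited values were 0.893 to 1.72 times the exonic bases of GENCODE M21, with the highest ratio for Errfi1. On M21 lengths Errfi1 would hold 7.33 FPKM in KCl and 4.97 FPKM in control, with a mean above that of Dusp4 in both. Its KCl range of 3.52 to 9.45 FPKM would enclose that of Dusp4 (4.73 to 6.21 FPKM), while the control ranges would be separate. Dusp1 would hold 20.3 FPKM in KCl, close to Dusp5.

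By distance of centred log2 CPM over the 6 libraries (root mean square, among 9286 or 9287 other genes with a mean of at least 10 CPM), the nearest gene was Ndrg2 for Dusp4 at 0.0783, Abcc3 for Spry2 at 0.0127, Got1 for Dusp1 at 0.0181, Tlr2 for Dusp6 at 0.016 and Abr for Dusp3 at 0.00628. For Dusp5 it was Acss1 at 0.0362 and for Dusp2 it was Mesdc1 at 0.0792. Clcn5, an endosomal chloride and proton exchanger, was nearest to Errfi1 at 0.0736, Arrdc4 to Spred1 at 0.0102 and Gm15931 to Dusp16 at 0.0411. These distances describe 6 libraries that are not all independent.

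Of 18 tested relatives of the 10 genes, 1 passed, against 22.9% of all tested genes in either direction. A fold change that did not pass is not shown to be 0. Of 3 tested MAP kinase phosphatases outside the 10, Dusp9 fell and Dusp7 (0.09 ± 0.10) and Dusp10 (0.07 ± 0.12) did not pass. Dusp9, an ERK phosphatase, was scarce at 0.425 CPM in KCl and 1.02 CPM in control, with a log2 fold change of -1.25 ± 0.24 (edgeR adjusted p = 0.0137), and it missed the threshold without KCl 1, KCl 4 or control 4 (0.0526 to 0.0701), without replicate 4 altogether (0.12) and in DESeq2. Of 11 tested atypical DUSP and slingshot phosphatases, 0 passed, the median log2 fold change was 0.07, and single values ran from -0.72 for Dusp14 to 0.46 for Dusp28. By DESeq2 1 of them was lower. Of 4 tested Sprouty and Spred relatives, 0 passed, with log2 fold changes of 0.39 ± 0.12 for Spry1 and 0.69 ± 0.21 for Spry4 (edgeR adjusted p of 0.0571 and 0.0651, both named after their values were seen).

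At the receptor, 2 of 13 GM-CSF receptor and proximal signalling genes rose and 1 fell, against 12.4% and 10.5% of all tested genes. Csf2ra, the ligand-binding chain of the GM-CSF receptor, rose by 0.45 ± 0.08, with 400 CPM in KCl and 293 CPM in control, and the adaptor gene Gab2 rose by 0.42 ± 0.06. The beta chain gene Csf2rb did not pass (-0.18 ± 0.08, edgeR adjusted p = 0.164). Csf2rb2, listed as a close copy of Csf2rb, fell by 0.29 on the log2 scale (SE 0.06), which is uncertain because of that likeness. The call of Csf2rb2 was lost without KCl 4 or control 4 (edgeR adjusted p of 0.0651 and 0.0708). Of the RAS and ERK cascade, 2 of 21 tested genes rose and 0 fell, against the same 12.4% and 10.5%. The RAS inactivator Rasal3 was among those that rose (0.56 ± 0.06).

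In the JNK and p38 cascades 4 of 23 tested genes rose and 0 fell, against 12.4% and 10.5% of all tested genes, with DESeq2 calling 1 lower. The 4 included the upstream kinases Map3k11 (0.44 ± 0.06) and Map3k5 (0.34 ± 0.09) and the p38 effector kinase Mapkapk2 (0.44 ± 0.08, with 604 CPM in KCl and 445 CPM in control). Map3k5 missed the threshold without any 1 library except control 2 (edgeR adjusted p from 0.0719 to 0.108), and Mapkapk2 without KCl 1 (0.0502). With upper-quartile scaling 1 RAS and ERK gene and 2 JNK and p38 genes rose and 1 RAS and ERK gene fell, and without the low-count filter the same numbers rose and 0 fell.

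**Figure D4:**
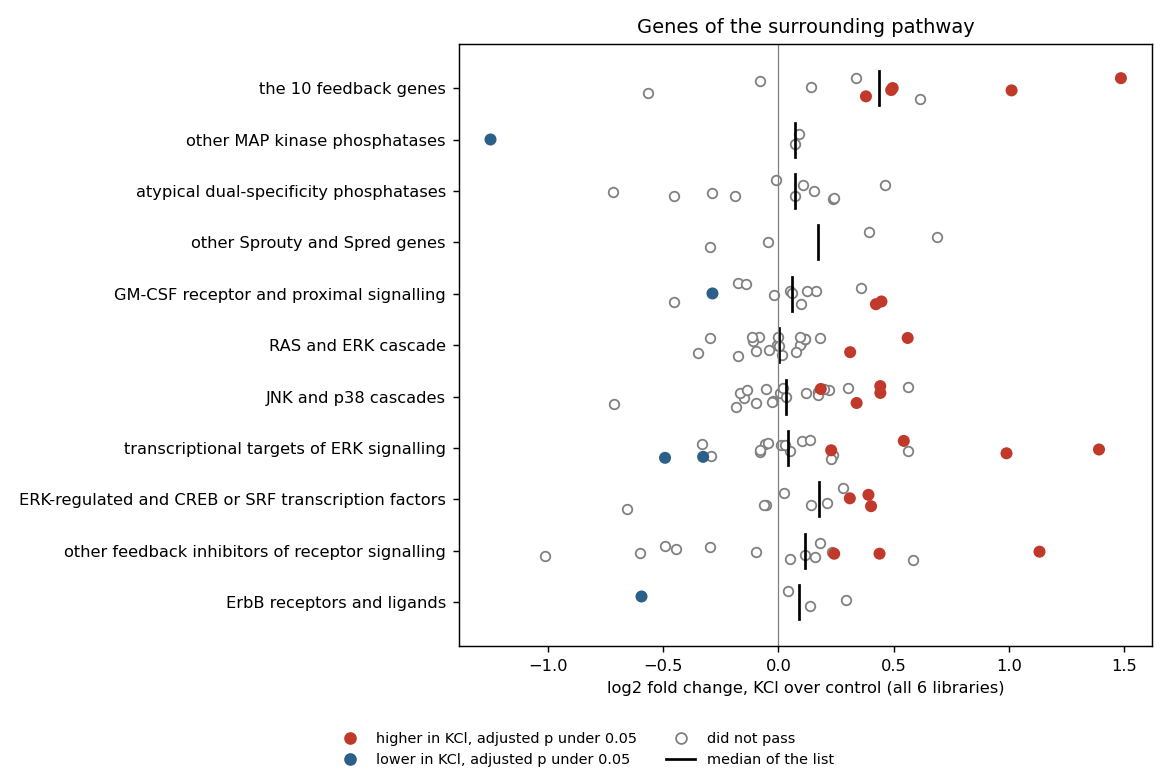
Log2 fold change of KCl over control with all 6 libraries (horizontal axis) for the tested genes of each list, where each point is a gene, red and blue points passed at an edgeR adjusted p under 0.05 as higher and lower, open points did not pass, and the black bar is the median. The bar of the 10 feedback genes is at 0.43, and those of the other lists lie between 0.00 and 0.18.

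Of 20 tested transcripts driven by ERK signalling, 4 rose and 2 fell, against 12.4% and 10.5% of all tested genes, and the median log2 fold change was 0.04. The stress response gene Ier3 rose by 0.99 ± 0.11, with 190 CPM in KCl and 95.7 CPM in control, and the receptor gene Epha4 (1.39 ± 0.15) and the transcription factor gene Ets2 (0.54 ± 0.10) rose with it. The immediate early gene Egr1 fell by 0.49 on the log2 scale (SE 0.07), with 58.9 CPM in KCl and 82.8 CPM in control. The cyclin gene Ccnd1 fell by 0.33 (SE 0.08), a call lost without KCl 2, KCl 4, control 2 or control 4 (edgeR adjusted p from 0.0649 to 0.0974). Of 10 tested transcription factors that ERK, CREB or SRF signals use, 3 rose and 0 fell (1 lower in DESeq2), namely Elk4 (0.40 ± 0.06), Jun (0.39 ± 0.08) and Elk3 (0.31 ± 0.07). Jun missed the threshold without KCl 1, KCl 2 or control 4 (0.0502 to 0.0559) and Elk3 without any 1 library except KCl 4 (0.0502 to 0.0727).

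Among other feedback inhibitors of receptor signalling 3 of 15 rose and 0 fell, against 12.4% and 10.5% of all tested genes, with DESeq2 calling 2 lower. Socs3, which restrains JAK kinases at cytokine receptors, rose by 1.13 ± 0.09, with 146 CPM in KCl and 66.8 CPM in control, and it also passed in replicates 1 and 2 (edgeR adjusted p = 0.0438). The genes Zfp36l2 (0.44 ± 0.07) and Zfp36 (0.24 ± 0.04), whose products speed the decay of cytokine messenger RNAs, rose as well, Zfp36 not without control 4 (adjusted p = 0.0567). Socs3 was the only pathway gene outside the 10 that passed in replicates 1 and 2. With a term for replicate 4, the calls of Csf2rb2, Map3k5, Ccnd1, Elk3, Zfp36 and Nrg1 were lost. Of the EGF receptor family, on which Errfi1 acts, and the ligands of that family, 4 of 10 listed genes were abundant enough to test. Egfr itself stood at 3.91 CPM in KCl and 3.56 CPM in control, and the ligand gene Nrg1 fell by 0.60 on the log2 scale (SE 0.15), with 10.8 CPM in KCl and 16.4 CPM in control, a call lost without KCl 2, KCl 4, control 1 or control 4 (edgeR adjusted p from 0.0786 to 0.0996).

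Markers of several cell types moved with the groups while these genes were measured, and their part in the results was not tested. The summed level of 10 macrophage markers was 1825 to 1956 CPM in KCl and 913 to 1332 CPM in control. Of these markers 3 were higher (Gpnmb, C1qc and Apoe) and 0 lower, against 12.4% and 10.5% of all tested genes. Gpnmb alone had 1123 to 1155 CPM in KCl and 338 to 623 CPM in control, so the sum rose mostly through this gene. Adgre1, Mertk, Fcgr1, Mrc1, Cd68, C1qa and C1qb did not pass. The 10 neutrophil markers, carried mostly by Ngp, Ltf and S100a8, summed to 14396 to 20192 CPM in KCl and 10851 to 13225 CPM in control. However, 6 of the 10 had the opposite sign in replicate 4. The 8 eosinophil markers, carried mostly by Epx and Prg2, summed to 962 to 1118 CPM in KCl and 2353 to 2584 CPM in control. Of these markers 5 were lower and 0 higher, against 10.5% and 12.4% of all tested genes. Siglecf, Ccr3 and Il5ra did not pass, and Siglecf and Ccr3 were higher in KCl in replicates 1 and 2 and lower in replicate 4. The 9 lymphocyte markers in the table summed to 118 to 149 CPM in KCl and 71.1 to 78.2 CPM in control, mostly Ighm, and the T cell marker Cd3e had 27 counts over all 6 libraries. Basophil and mast cell markers (548 to 649 CPM in KCl, 526 to 657 CPM in control) and erythroid and megakaryocyte markers (152 to 175 CPM in KCl, 127 to 259 CPM in control) overlapped between the groups.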

How the data were processed

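RNA of 3 KCl and 3 control cultures was sequenced, and groups and replicate numbers (1, 2 and 4) were taken from the sample titles. The tools named in the submitters' processing notes are StringTie 1.3.3b, HISAT2 2.0.4 and edgeR, and the genome build is mm10. The counting program is not given in the sources used here. The authors deposited whole-number read counts and FPKM values per gene. The test of the counts used edgeR 4.0.16 (R 4.3.3): filterByExpr (minimum count 10, minimum total 15), TMM scaling, the robust 2-sided quasi-likelihood test and Benjamini-Hochberg adjustment over all tested genes, with a threshold of 0.05. Replicates 1 and 2 were also tested alone, and replicate 4 was compared with them through an interaction term. CPM values are TMM-scaled, except in the comparison of pairs of libraries over 8231 genes, which used library totals alone. Log2 CPM used a prior count of 2. Deposited FPKM was used only for levels, without a test.

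The 10 genes and the pathway lists were chosen with earlier results of these data known. Named pathway genes are those that passed, at most 3 per direction in a list and ordered by p, plus exceptions stated in the text. Some genes of the lists are counted but not reported by name here. Coordinates come from GENCODE M21. Alternatives were other scalings and filters, a replicate block, a term for replicate 4, DESeq2 1.42.0, limma-voom (limma 3.58.1) and each library left out. Deviations of same-numbered libraries from their group means had correlations over 13326 genes of 0.02, -0.06 and -0.75 for replicates 1, 2 and 4. The match between replicate 4 and the other 4 libraries constrains these correlations, so they cannot settle whether equal numbers mark pairs. The labels give no pairing, and the replicate number was not used as one in the main test.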

Additional observations from a re-analysis of the deposited data

How the results depend on the processing

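With all 6 libraries, 1655 genes were higher and 1402 lower. These counts were 978 and 700 with the replicate block, 922 and 651 with a term for replicate 4, 45 and 17 without replicate 4, and 852 to 1495 and 551 to 1356 without any 1 library. RLE, upper-quartile and library-size scaling kept 5 of the 10 genes higher and 0 lower, as did limma-voom and both other filters. Upper-quartile scaling turned the balance over all genes to 1422 higher and 1735 lower. DESeq2 called 5 higher and 1 lower (Dusp5). With a term for replicate 4, 3 of the 10 were higher, since Dusp3 (edgeR adjusted p = 0.0589) and Dusp6 (0.075) missed the threshold, and 1 was higher without replicate 4. Without any 1 library 3 to 5 were higher and 0 to 1 lower. Whether equal replicate numbers mark pairs could not be settled. The replicate block left 5 higher and 0 lower among the 10 genes with all 6 libraries and 4 higher in replicates 1 and 2. In replicates 1 and 2, 2 were higher with library size alone, 2 without the low-count filter and 4 with DESeq2, and 0 to 1 when 1 of these 4 libraries was left out, an alternative added after the data were seen. Errfi1 passed there with every other scaling, filter and tool and with the block (adjusted p at most 0.0436), but not without KCl 1 or KCl 2. The sign of Dusp16 turned without replicate 4 (0.12), without KCl 4 (0.021), without control 2 (0.069) and without control 4 (0.018), its range without any 1 library being -0.31 to 0.069. In replicates 1 and 2 it ran from -0.25, without control 1, to 0.58, without control 2. The interaction called 0 of the 10 genes under every alternative run. Replicates 1 and 2 give fewer residual degrees of freedom, which limits the calls made from them; the cause of the other differences was not tested.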
